A study of Mus musculus with 16 samples.

Results

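The genes described here are 50 genes of the E2F and DNA replication programme: the E2F factors with their partner Tfdp1, the RB family, the G1/S kinases and cyclins, and the genes that license, unwind and copy DNA. They were taken by symbol from a list, and all 50 were found among the 50686 gene models of the count files. RNA sequencing was done on 16 libraries of mouse pro-B cell lines transformed with BCR-ABL1p185, the oncogene of a form of acute lymphoblastic leukemia. The 8 lines were derived individually from C57BL/6N bone marrow, 4 from wildtype mice and 4 from Cdk8Δ/Δ mice, and the study's methods give the controls as Cdk8 fl/fl and the deletion as driven by Vav-Cre, which acts in blood cells generally. Each line was grown for 48 h with DMSO (0.01%) and with 1 µM Senexin B, an inhibitor of the kinases CDK8 and CDK19, so that 4 groups of 4 libraries resulted. All lines carry the oncogene, and an untransformed cell is not part of the comparison.

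Between 13145876 and 18349425 reads per library were assigned to genes. The pro-B markers Pax5, Ebf1, Cd79a, Cd79b, Vpreb1 and Igll1 each exceeded 1 CPM (counts per 1000000 counts, scaled by TMM) in every library, and the summed level of 4 T-cell markers reached at most 0.139 CPM. Myeloid markers summed to 0.44 to 24.7 CPM and the 2 NK markers to 0.216 to 81.3 CPM, with the highest value of each in a Cdk8Δ/Δ library and Elane and Ncr1 at 0 throughout. Cdk8 RNA, counted over the whole gene and so including exons outside the deleted part, was 61.7 to 68.6 CPM in wildtype and 35.3 to 52.0 CPM in Cdk8Δ/Δ lines with DMSO. With Senexin B it was 55.1 to 89.3 CPM in wildtype and 41.1 to 61.6 CPM in Cdk8Δ/Δ lines, and these groups overlapped.

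E2F factors bind DNA together with a DP partner and switch on the genes of DNA synthesis, while RB and its relatives p107 and p130 hold them in check until cyclin-dependent kinases phosphorylate the RB proteins in late G1. E2F7 and E2F8 are atypical members that bind without a DP partner and repress, and are themselves E2F targets. In dividing cells the origin recognition complex, CDC6 and CDT1 load the MCM2-7 helicase, which CDC45 and GINS activate, and polymerases, a sliding clamp and a supply of nucleotides complete synthesis.

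The promoters of several members carry the E2F consensus site. The windows below were picked after the values of these genes were seen, and whether the sites bear on any level was not tested. Promoter windows from RefSeq (GRCm38.p6), from 250 bases before to 50 bases after an annotated start, were at hand for 40 of the 50 members. One of 4 spellings of the site (TTTCCCGC, TTTCGCGC, TTTGCCGC, TTTGGCGC, on either strand, overlaps allowed) was present for 17 of the 40 members, or 42.5%. Of all 27025 genes with a window, 704 (2.60%) had a match. The list was drawn up to hold E2F and replication genes, so this difference in share is not a result of the libraries. The CCAAT box, counted the same way, was present for 57.5% of the members and 41.1% of all genes. In the windows below, written 5′ to 3′ on the strand of the gene, capitals mark these E2F sites.
Mcm6 (chr1:128359656-128359955, minus strand): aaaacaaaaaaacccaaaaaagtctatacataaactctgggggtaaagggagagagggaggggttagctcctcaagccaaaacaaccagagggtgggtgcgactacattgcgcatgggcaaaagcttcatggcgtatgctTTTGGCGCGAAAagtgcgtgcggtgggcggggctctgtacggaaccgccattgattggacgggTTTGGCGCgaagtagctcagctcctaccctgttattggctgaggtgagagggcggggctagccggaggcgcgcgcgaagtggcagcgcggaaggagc
Mcm3 (chr1:20820263-20820562, minus strand): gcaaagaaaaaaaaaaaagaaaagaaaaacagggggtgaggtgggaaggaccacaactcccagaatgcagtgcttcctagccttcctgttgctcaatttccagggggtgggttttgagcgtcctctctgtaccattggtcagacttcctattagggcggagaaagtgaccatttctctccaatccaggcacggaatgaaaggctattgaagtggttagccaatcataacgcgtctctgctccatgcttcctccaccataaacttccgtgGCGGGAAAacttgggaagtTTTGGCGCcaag
Mcm5 (chr8:75109259-75109558, plus strand): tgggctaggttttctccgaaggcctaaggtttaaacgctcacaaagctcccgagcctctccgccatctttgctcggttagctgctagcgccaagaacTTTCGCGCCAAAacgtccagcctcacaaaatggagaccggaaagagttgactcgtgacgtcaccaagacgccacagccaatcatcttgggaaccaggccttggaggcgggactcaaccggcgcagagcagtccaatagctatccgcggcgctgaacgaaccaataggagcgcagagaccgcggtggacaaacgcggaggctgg
Mcm2 (chr6:88898731-88899030, minus strand): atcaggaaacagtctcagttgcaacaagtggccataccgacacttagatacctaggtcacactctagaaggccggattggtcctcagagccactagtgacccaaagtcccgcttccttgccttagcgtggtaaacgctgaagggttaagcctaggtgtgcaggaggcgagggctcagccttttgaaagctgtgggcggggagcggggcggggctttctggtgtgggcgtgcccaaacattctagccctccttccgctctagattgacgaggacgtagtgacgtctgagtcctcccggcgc
E2f7 (chr10:110745189-110745488, plus strand): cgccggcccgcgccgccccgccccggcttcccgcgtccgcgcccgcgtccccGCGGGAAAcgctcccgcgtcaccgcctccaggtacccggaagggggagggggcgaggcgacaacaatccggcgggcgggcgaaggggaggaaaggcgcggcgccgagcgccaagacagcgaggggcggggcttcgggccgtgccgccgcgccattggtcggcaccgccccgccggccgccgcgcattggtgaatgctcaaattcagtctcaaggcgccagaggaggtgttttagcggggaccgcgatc
Mcm6 had 3 matches, at -110, -106 and -47 relative to its start, of which the first 2 overlap. The Mcm5 pair, at -153 and -149, also overlaps, while the matches of Mcm3 lie at 19 and 38, after its start. E2f7 had 1 match, at -198. The Mcm2 window, shown for contrast, holds none of these spellings.

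All 50 members had enough counts to be tested in every comparison, and the lowest count of any member in any library was 8, for Fen1. Levels are compared between genes as CPM per kilobase of exon (RPKM), given as the mean ± SD over the 16 libraries. The highest of all was Rrm2, the regulated subunit of ribonucleotide reductase, at 169 ± 65.9, followed by the helicase genes Mcm4 (121 ± 25.1) and Mcm6 (106 ± 23.4). E2f8 led the E2F factors at 80.4 ± 20.2 and was above Tfdp1 (49.1 ± 5.63) in 15 of 16 libraries. E2f1 (11.3 ± 2.52) and E2f7 (10.97 ± 4.41) were the lowest of that group and could not be ranked, since E2f1 was the higher of the pair in only 7 libraries. In the RB family the order was Rbl1, encoding p107, at 36.9 ± 4.59, then Rb1 at 30.8 ± 8.45 and Rbl2, encoding p130, at 6.65 ± 1.03, with Rbl1 above Rb1 in 12 libraries and Rb1 above Rbl2 in all 16.

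**Figure D1:**
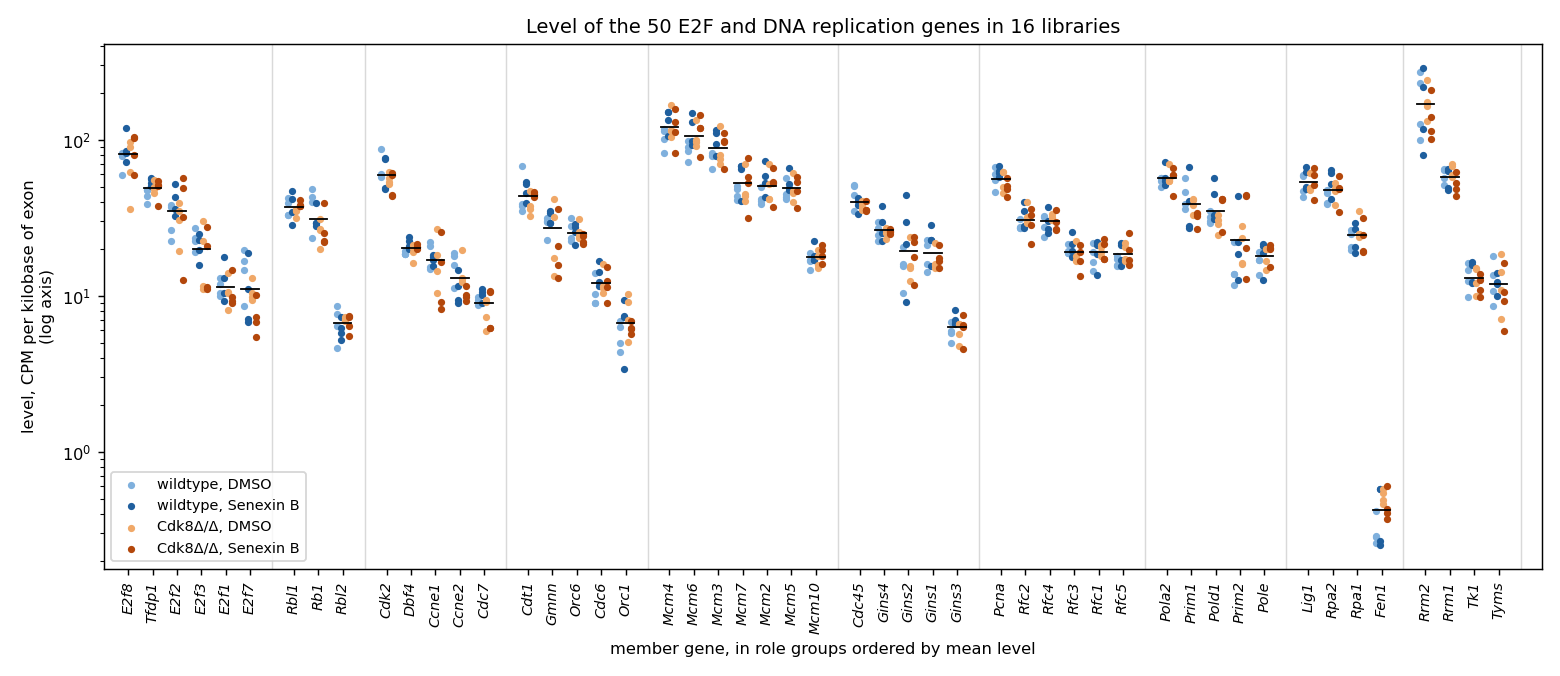
Level of each of the 50 members in the 16 libraries, in CPM per kilobase of exon on a log axis, in role groups ordered by mean level. Each point is 1 library, coloured by group, and the bar is the mean over 16 libraries. Rrm2, Mcm4 and Mcm6 stand highest and Fen1 lowest, and for most genes the points of the 4 groups overlap.

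Among the kinases and cyclins of G1/S, Cdk2 was highest (59.1 ± 11.9) and Cdc7, the kinase that fires licensed origins, lowest (8.95 ± 1.7). Cdt1 (43.8 ± 8.64) and Orc1 (6.64 ± 1.84) were the ends of the licensing group, and Gmnn, the inhibitor of CDT1, was above Orc6 in 10 libraries only. Mcm10 was the lowest of the helicase group at 17.8 ± 2.13, and Mcm7, Mcm2 and Mcm5, with means between 49.3 and 52.5, could not be ranked. By the mean over all exon bases, Cdc45 (39.6 ± 5.33) stood above the 4 GINS genes, down to Gins3 at 6.27 ± 0.96. Gins2 reached 43.9 in its highest library. It cannot be ranked against Cdc45, since it shares 67.3% of its exon bases with another gene model, as described below. Pcna, the sliding clamp, was at 56.1 ± 7.99, and Rfc5 was the lowest clamp loader subunit at 18.5 ± 2.86, close to Rfc3 and Rfc1. Pola2, a subunit of the polymerase that carries primase, was the highest polymerase gene (57.2 ± 7.11) and Pole the lowest (17.98 ± 2.83). Lig1, the ligase that joins Okazaki fragments, had 53.6 ± 8.18. Tyms, which makes thymidylate, was the lowest nucleotide gene (11.97 ± 3.61).

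Fen1, the nuclease that trims Okazaki fragments, was listed at only 0.42 ± 0.13 RPKM. Other gene models, mainly Gm10143 on the opposite strand, cover 2039 of its 2422 exon bases (84.2%), and reads were counted without strand, which leaves out a read that falls on more than 1 gene. Its counts thus come from the bases it does not share. Gins2 shares 67.3% of its exon bases with Gse1, Rbl2 21.0% and Ccne2 17.4% with other models, whereas 31 members share none. Levels per kilobase were taken over all exon bases, so those of members that share bases can be too low.

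The first question was whether deletion of Cdk8 altered these genes. The study's gene set enrichment listed E2F targets and the G2M checkpoint as lower without CDK8. That method was not repeated here, and its gene sets are not this list. In DMSO, none of the 50 members was called with edgeR's quasi-likelihood test, where a call needed both an adjusted p (Benjamini-Hochberg) below 0.05 and more than a 2-fold difference, and the test called 0.00759% of all 13174 genes (1 gene). The deleted gene Cdk8 was itself not called, with a log2 fold change of -0.55 (adjusted p = 0.897, edgeR). With Senexin B in both genotypes its value was -0.44 (adjusted p = 0.9997, edgeR). A member without a call is therefore not shown to be unchanged. At an unadjusted p under 0.05, 2 members stood out, Fen1 and Rb1, which is 4% of the list against 5.32% of all genes. The members' median log2 fold change was 0.01, with 27 above and 23 below 0, beside 0.00 over all genes. The 95% interval lay within a fold of 2 for 44 of the 50 members. The exceptions were E2f3, E2f7, Rb1, Orc1, Prim2 and Fen1. Because these are bulk libraries, fewer cells in S phase and less RNA per cell cannot be told apart.

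Rb1, the gene of the retinoblastoma protein, was 141, 241, 258 and 289 CPM in the wildtype lines 1 to 4 with DMSO and 160, 120, 187 and 160 CPM in the Cdk8Δ/Δ lines. Wildtype line 1 fell among the Cdk8Δ/Δ lines, so the groups overlapped. The log2 fold change was -0.57 (SE 0.23, adjusted p = 0.897, edgeR), and it was not past the test. E2f7, on chromosome 10 from 110745439 to 110787384, was 177, 77.4, 132 and 150 CPM in the wildtype lines and 117, 94.2, 88.7 and 84.1 CPM in the Cdk8Δ/Δ lines. Wildtype line 2 was the lowest of all 8. The difference was -0.48 (SE 0.24, adjusted p = 0.897, edgeR), and it ranged from -0.68 without wildtype line 2 to -0.32 without wildtype line 1.

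E2f1, the founder of the family, was 31.4 to 40.9 CPM in wildtype and 25.7 to 43.8 CPM in Cdk8Δ/Δ lines with DMSO, a log2 fold change of -0.07 with a 95% interval from -0.49 to 0.34. Ccne1, which encodes cyclin E1 and is a classical E2F target, was 39.5, 40.8, 58.6 and 55.6 CPM in wildtype and 38.2, 27.8, 48.5 and 71.7 CPM in Cdk8Δ/Δ lines. Line 4 was the highest and line 2 the lowest of the Cdk8Δ/Δ lines, and they enclosed the wildtype range. The log2 fold change of Ccne1 was -0.06, and its interval, from -0.72 to 0.60, was among the wider ones.

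By role, all 7 helicase genes had fitted values above 0 in Cdk8Δ/Δ lines with DMSO (log2 fold changes from 0.03 to 0.28), and 4 of the 5 G1/S kinase and cyclin genes had values below 0 (from -0.23 to 0.03). No member of either group passed the test. The helicase genes moved together, as described below, so the 7 signs are not separate evidence. Their mean log2(CPM + 1), relative to the 16 libraries, was -0.23, -0.07, -0.18 and 0.39 in Cdk8Δ/Δ lines 1 to 4 with DMSO. In wildtype lines 1 to 4 it was -0.14, -0.38, -0.17 and -0.01. Cdk8Δ/Δ line 4 was thus the only one of these 8 libraries above 0. In 1 member the 4 Cdk8Δ/Δ lines lay entirely on 1 side of the 4 wildtype lines, namely Fen1, with 0.693, 1.01, 0.697 and 0.629 CPM in wildtype and 1.18, 1.13, 1.40 and 1.32 CPM in Cdk8Δ/Δ lines. This separation was found for 3.14% of all genes, and the counts of Fen1 come from its unshared bases only. How far the overlap accounts for its low level was not tested.

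**Figure D2:**
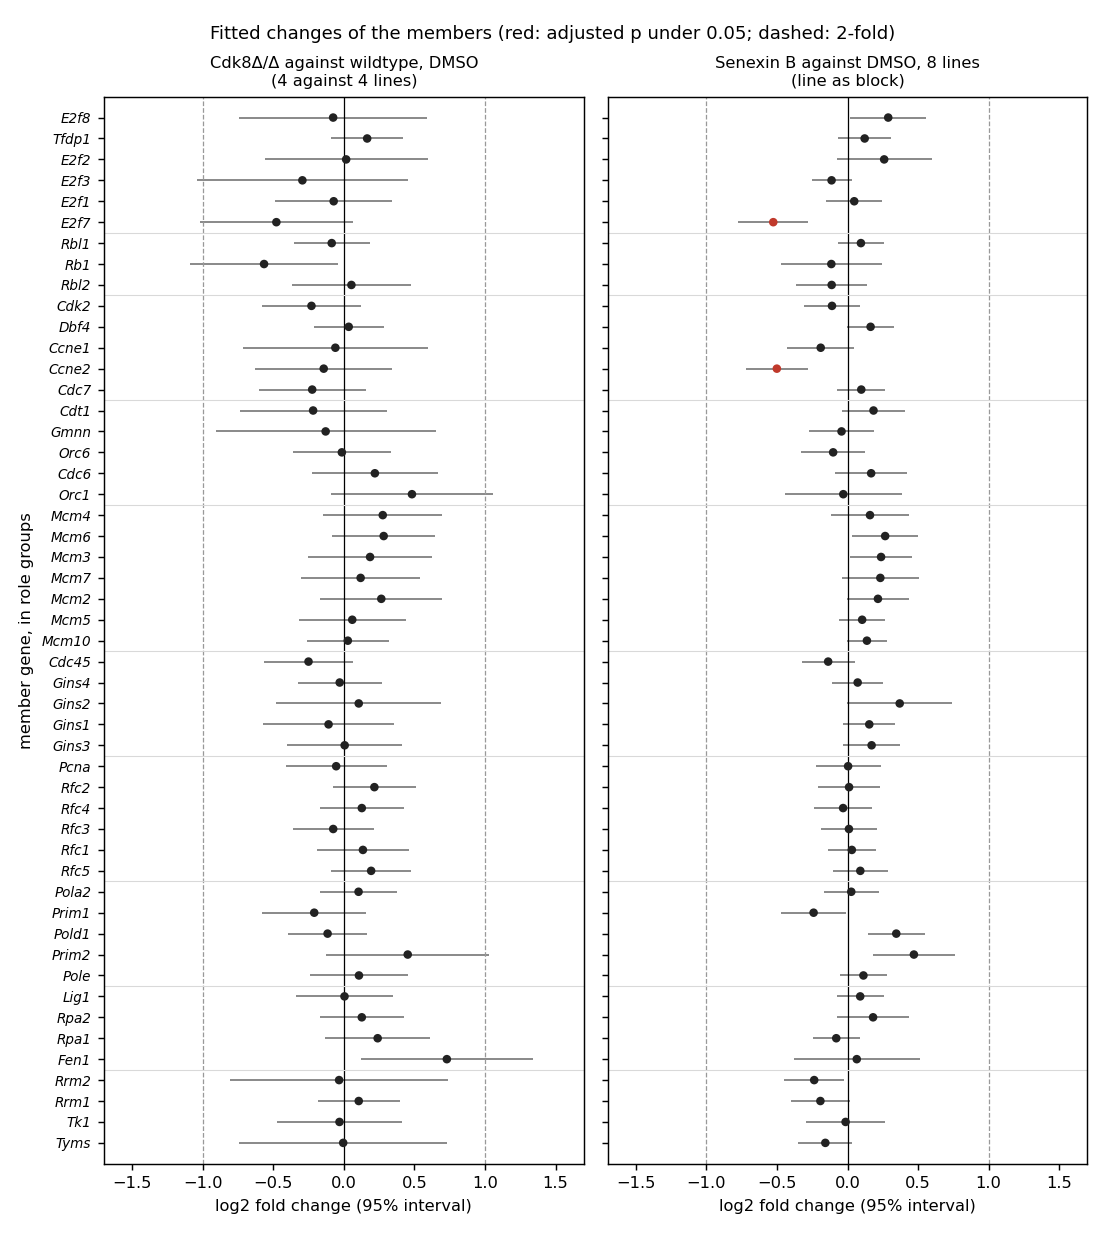
Fitted log2 fold change of each member with its 95% interval, left for Cdk8Δ/Δ against wildtype lines with DMSO (edgeR, 4 against 4 lines) and right for Senexin B against DMSO over 8 lines (edgeR, line as block). Red points have an adjusted p under 0.05 and dashed lines mark a fold of 2. Only Ccne2 and E2f7 in the right panel are red, and both lie inside the dashed lines.

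With Senexin B in both genotypes, again none of the 50 members was called, and edgeR called 0% of 13010 genes. Pcna alone had an unadjusted p under 0.05, against 1.55% of all genes. The median log2 fold change of the members was -0.14, with 42 of 50 below 0, while all genes had a median of 0.00 and 6584 of 13010 below 0. The members' median was -0.04 without Cdk8Δ/Δ line 1 and -0.20 without Cdk8Δ/Δ line 4, the ends of the range over the left-out libraries. The 22 G2/M genes and the 54 other E2F and replication genes had 20 and 44 members below 0, so that lower values were not limited to the 50. What part a different share of dividing cells has in this was not tested.

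Pcna was 152, 164, 147 and 139 CPM in wildtype and 103, 121, 116 and 136 CPM in Cdk8Δ/Δ lines with Senexin B. All 4 Cdk8Δ/Δ lines were below all 4 wildtype lines, which held for 1 of the 50 members, and 0.999% of all genes separated in either direction. The log2 fold change was -0.34 (SE 0.14, adjusted p = 1.00, edgeR). In DMSO the groups overlapped, at 111 to 160 CPM in wildtype and 109 to 149 CPM in Cdk8Δ/Δ lines. Gmnn was 42.9, 42.8, 51.5 and 49.8 CPM in wildtype and 30.4, 23.2, 19.0 and 53.0 CPM in Cdk8Δ/Δ lines with Senexin B, where Cdk8Δ/Δ line 4 exceeded all wildtype lines and the other 3 lay below them. Its log2 fold change was -0.58 (SE 0.31) over the 4 lines and between -0.95 and -0.39 when 1 library was left out. Gins1, a subunit of the GINS complex, was 23.7 to 42.7 CPM in wildtype and 23.0 to 31.9 CPM in Cdk8Δ/Δ lines.

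The second question was whether Senexin B altered the members within a line. Without pairing the libraries of a line, edgeR called 0% of genes and none of the members in wildtype lines, in Cdk8Δ/Δ lines or over both. At an unadjusted p under 0.05 there were 2 members in wildtype lines (3.8% of all genes), 3 in Cdk8Δ/Δ lines (1.83%) and 4 over both (4.86%). The 2 libraries of a line deviated together, so the line was entered as a block. With this replicate block 0.346% of genes passed both limits in wildtype lines, 0.0527% in Cdk8Δ/Δ lines and 0.946% over both genotypes (134 of 14164), but again none of the 50 members. DESeq2 without a block called none of the members either, whereas it called 0.159% of genes for genotype in DMSO, 0.0231% for genotype with Senexin B, 0.139% for Senexin B in wildtype lines, 0% in Cdk8Δ/Δ lines and 0.113% over both genotypes.

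Over the 8 lines with the replicate block and no limit on the fold, 2 of the 50 members had an adjusted p under 0.05, Ccne2 and E2f7, and both were lower with Senexin B. Among all genes 2.63% passed in either direction and 1.49% passed as lower. DESeq2 with the same block added Pold1 and Prim2, both higher, which made 4 members against 5.38% of all genes. In Cdk8Δ/Δ lines alone it passed 1 member, E2f7, against 1.51% of genes. All 50 members had an interval within a fold of 2 in edgeR's fit over the 8 lines.

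Ccne2 encodes cyclin E2, a partner of CDK2, and lies on chromosome 4 from 11191351 to 11204779. In wildtype lines 1 to 4 it was 54.9, 39.4, 63.0 and 65.5 CPM with DMSO and 50.7, 31.3, 40.1 and 32.7 CPM with Senexin B. The Cdk8Δ/Δ lines had 68.7, 45.6, 44.7 and 42.5 CPM with DMSO and 40.3, 32.5, 34.2 and 35.3 CPM with Senexin B. It was lower with Senexin B in each of the 8 lines, by the most in wildtype line 4 and Cdk8Δ/Δ line 1. The log2 fold change with the replicate block was -0.50 (SE 0.10, adjusted p = 0.0250, edgeR's quasi-likelihood test), and an exact sign-flip test over the 8 lines gave the smallest p it can, 0.00781 (two-sided). Without the block the adjusted p was 0.574. It was also lost when both libraries of wildtype line 3 (0.0839) or 4 (0.0549) or of Cdk8Δ/Δ line 2 (0.0607) or 3 (0.0613) were left out, with log2 fold changes between -0.56 and -0.43 over all such fits.

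E2f7 was 177, 77.4, 132 and 150 CPM with DMSO and 170, 61.3, 98.9 and 63.8 CPM with Senexin B in wildtype lines 1 to 4. In the Cdk8Δ/Δ lines it was 117, 94.2, 88.7 and 84.1 CPM with DMSO and 91.3, 65.5, 61.6 and 48.7 CPM with Senexin B. All 8 lines were lower with Senexin B, wildtype line 1 by little and wildtype line 4 by more than a factor of 2. The log2 fold change was -0.53 (SE 0.11, adjusted p = 0.0336, edgeR with the replicate block), and 0.982 without the block. The exact sign-flip test gave 0.00781 here too, and also for Pold1. It was run on 14 members, most of them chosen for a small p in these data, and its p-values are not adjusted. With the block, edgeR's adjusted p was above the limit when wildtype line 2 (0.0540) or 3 (0.0797) or Cdk8Δ/Δ line 2 (0.0755), 3 (0.0858) or 4 (0.0875) was left out. Between -0.59 and -0.43 in these fits, the log2 fold change kept its sign in each. E2f8, the other atypical member, had a log2 fold change of 0.29 (adjusted p = 0.268) in the same fit, opposite in sign to E2f7.

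**Figure D3:**
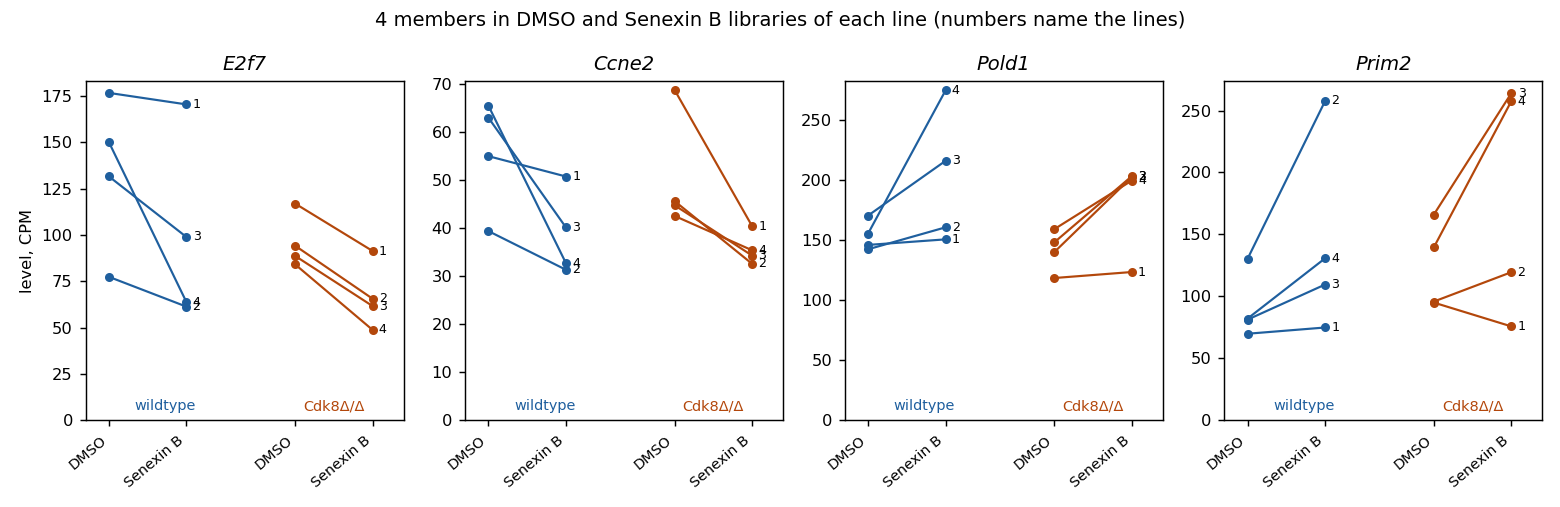
E2f7, Ccne2, Pold1 and Prim2 in CPM, on axes from 0, with a line joining the DMSO and the Senexin B library of each cell line, wildtype in blue and Cdk8Δ/Δ in orange, numbered by line. E2f7 and Ccne2 go down in all 8 lines, Pold1 goes up in all 8, and Prim2 goes up in all but Cdk8Δ/Δ line 1.

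Pold1, the catalytic subunit of polymerase delta, was 146, 143, 171 and 155 CPM with DMSO and 151, 161, 216 and 275 CPM with Senexin B in wildtype lines. The Cdk8Δ/Δ lines had 119, 148, 140 and 159 CPM with DMSO and 124, 204, 203 and 200 CPM with Senexin B. It was higher with Senexin B in all 8 lines, least in line 1 of each genotype. The log2 fold change was 0.35 (SE 0.09, adjusted p = 0.0809, edgeR with the replicate block), which missed the limit. Mcm10 was the other member that was higher in all 8 lines, by 0.01 to 0.26 on the log2 scale. These are 2 of 50 members, against 1.96% of all genes, and the 2 members lower in all 8 lines stand against 2.59%.

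Prim2, the large subunit of primase, was 69.8, 130, 81.2 and 82.0 CPM with DMSO and 74.9, 258, 110 and 131 CPM with Senexin B in wildtype lines. In Cdk8Δ/Δ lines it was 94.99, 95.8, 166 and 140 CPM with DMSO and 75.7, 120, 264 and 258 CPM with Senexin B. The lines differed more than the treatments, and 7 of the 8 lines were higher with Senexin B. The log2 fold change over both genotypes was 0.47 (SE 0.13, adjusted p = 0.0927, edgeR with the replicate block). Prim1, the catalytic primase subunit, had a value of the opposite sign, -0.24 (adjusted p = 0.284).

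In wildtype lines, 7 members had an unadjusted p under 0.05 with the block, against 10.3% of all genes: Prim2, Mcm6, Mcm2, Gins2 and Mcm3 higher, and Ccne2 and E2f7 lower. The smallest adjusted p was 0.2997, for Prim2. All 7 helicase genes had values above 0, with log2 fold changes from 0.16 to 0.44. Mcm6, a helicase subunit, was 418, 338, 397 and 459 CPM with DMSO and 429, 460, 608 and 695 CPM with Senexin B. Lines 2, 3 and 4 were higher by 0.44, 0.61 and 0.60 on the log2 scale, and line 1 by 0.04. The fitted log2 fold change was 0.44 (SE 0.17, adjusted p = 0.415, edgeR with the block). In the same libraries 18 of the 22 G2/M genes were above 0, with a median of 0.24, and the part of cell division in the values of the replication genes was not tested.

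In Cdk8Δ/Δ lines 9 members had an unadjusted p under 0.05 with the block, also against 10.3% of all genes, and 7 of these were lower. E2f7 came first, with a log2 fold change of -0.55 (SE 0.10, adjusted p = 0.154), then Ccne2 at -0.48 (SE 0.11, adjusted p = 0.239). All 4 nucleotide genes, Rrm1, Rrm2, Tk1 and Tyms, had values below 0, from -0.36 to -0.13, and Rrm1, Rrm2 and Tyms were among the 9. Rrm2 was 482, 366, 456 and 663 CPM with DMSO and 313, 280, 387 and 572 CPM with Senexin B in these lines, lower in all 4. In wildtype lines it was 347, 643, 275 and 754 CPM with DMSO and 323, 799, 221 and 603 CPM with Senexin B, lower in 3 of 4. Over both genotypes 9 members had an unadjusted p under 0.05 with the block, or 18% of the list, against 16.4% of all genes.

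Mcm6 in Cdk8Δ/Δ lines was 449, 463, 424 and 620 CPM with DMSO and 360, 551, 553 and 670 CPM with Senexin B. Line 1 was lower by 0.32 on the log2 scale and lines 2 to 4 were higher by 0.25, 0.38 and 0.11. E2f1 was 29.0, 55.7, 32.7 and 40.7 CPM in wildtype and 28.2, 29.2, 31.2 and 46.1 CPM in Cdk8Δ/Δ lines with Senexin B, and it was higher than with DMSO in 4 lines and lower in 4. Its log2 fold change over both genotypes was 0.05, with an interval from -0.15 to 0.25 in the blocked fit. Ccne1 with Senexin B was 46.9, 48.8, 44.9 and 41.3 CPM in wildtype and 24.3, 21.96, 43.7 and 68.1 CPM in Cdk8Δ/Δ lines. In that fit its log2 fold change was -0.19 (interval from -0.43 to 0.05), lower in 6 of 8 lines.

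Whether Senexin B acted differently in the 2 genotypes was tested as an interaction over the 16 libraries. None of the 50 members was called, edgeR called 0% of 14164 genes and DESeq2 0%, and no member had an unadjusted p under 0.05, against 0.473% of all genes. With the replicate block 1 member did, against 3.24% of all genes. It was Gmnn, with a difference of -0.42 (SE 0.18, adjusted p = 0.991, edgeR). The median difference of the members, Cdk8Δ/Δ minus wildtype, was -0.15, with 42 of 50 below 0. It was -0.08 without the DMSO library of Cdk8Δ/Δ line 4, -0.09 without the Senexin B library of line 1 and -0.27 without the Senexin B library of line 4. The G2/M list had a median of -0.27, with 21 of 22 below 0. Members that move together do not count as separate evidence. The 95% intervals of single members without the block were wide, such as -1.73 to 0.58 for Gins2 and -1.47 to 0.22 for Orc1. The member with the smallest p without the block was Tfdp1, the DP partner of the E2F factors, with a difference of -0.31 (SE 0.17, adjusted p = 1.00, edgeR), or -0.33 (SE 0.15, adjusted p = 0.991) with the replicate block. Tfdp1 in wildtype lines went from 175, 141, 175 and 161 CPM with DMSO to 186, 192, 206 and 208 CPM with Senexin B, higher in all 4. In Cdk8Δ/Δ lines it was 168, 177, 182 and 202 CPM with DMSO and 138, 188, 185 and 201 CPM with Senexin B, with line 1 the only one to move by more than 0.1 on the log2 scale. No member was higher in all 4 lines of 1 genotype and lower in all 4 of the other, a pattern found for 0.311% of all genes.

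The genes of the MCM2-7 helicase moved together from library to library. Pearson's r of log2(CPM + 1) over the 16 libraries was 0.78 to 0.94 between the 15 pairs of Mcm2 to Mcm7, with a median of 0.91, beside a median of 0.24 over all 1225 pairs of members. These values are a description, since the 2 libraries of a line share cells and all genes of a library share its depth and scaling. Cdk8Δ/Δ line 4 was the highest of its group in Mcm2 to Mcm7 in both treatments, and Cdk8Δ/Δ line 1 was the lowest of its group in each of them with Senexin B. Mcm2, for example, was 283, 269, 288 and 347 CPM in wildtype and 289, 362, 288 and 484 CPM in Cdk8Δ/Δ lines with DMSO. With Senexin B it was 298, 369, 404 and 509 CPM in wildtype and 258, 371, 368 and 459 CPM in Cdk8Δ/Δ lines. The members whose level followed the mean of Mcm2 to Mcm7 most closely were Tfdp1 (r = 0.88), Mcm10 (0.85), Lig1 (0.83) and Rfc5 (0.80). At the other end were Prim1 (-0.52), E2f7 (-0.50), Ccne2 (-0.46) and Rb1 (-0.44).

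**Figure D4:**
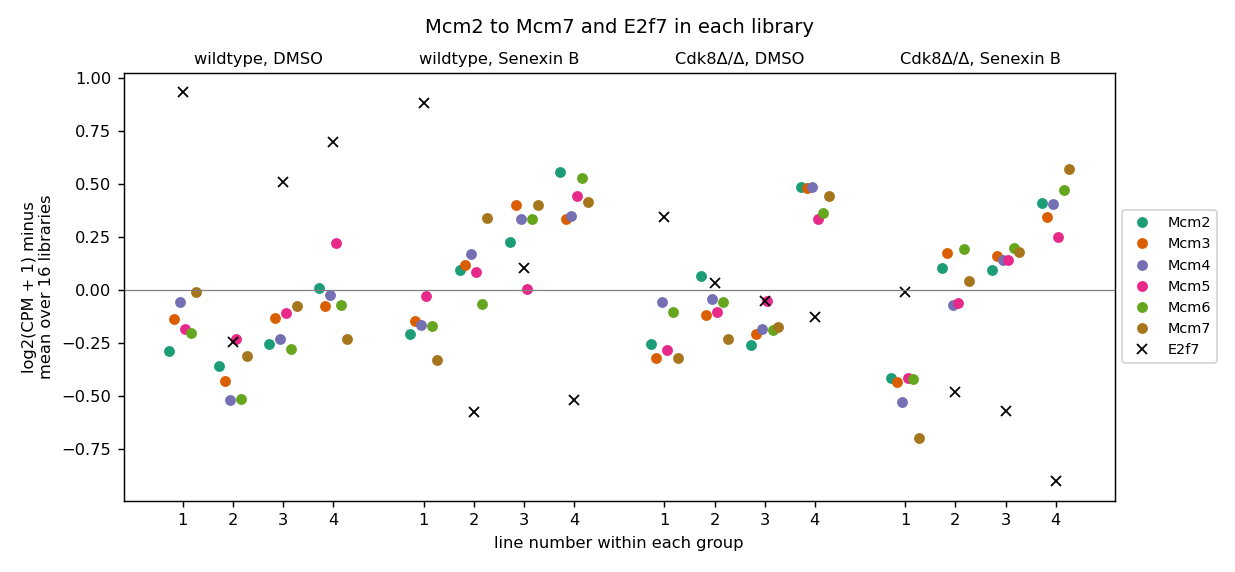
Mcm2 to Mcm7 (coloured points) and E2f7 (crosses) in each of the 16 libraries, as log2(CPM + 1) minus the gene's mean over the 16 libraries, with the line number on the horizontal axis. The 6 helicase genes sit close together in most libraries. They are high in line 4 of both Cdk8Δ/Δ groups and in wildtype line 4 with Senexin B. They are low in Cdk8Δ/Δ line 1 with Senexin B and in wildtype line 2 with DMSO.

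For most members, levels spread more between lines than within them once the mean response to Senexin B was taken out. The SD between lines is that of a line's mean log2 level over both treatments. The SD within lines is that of a library's distance from its line's mean, about the genotype's mean response. A response shared by all lines thus does not enter it. The SD between lines of a genotype exceeded the SD within lines for 42 of the 50 members (84%), against 88.2% of all genes. The members' median SD was 0.24 between and 0.13 within lines. Rrm2 had the largest spread between lines (SD 0.60 between and 0.12 within lines), followed by Prim2 (0.59 and 0.23). E2f3 was the clearest case, at 0.51 between and 0.04 within lines. Dbf4, the activator of CDC7, had the most even level, with a highest library 1.47 times the lowest, while Gins2 spanned 4.78 times.

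**Figure D5:**
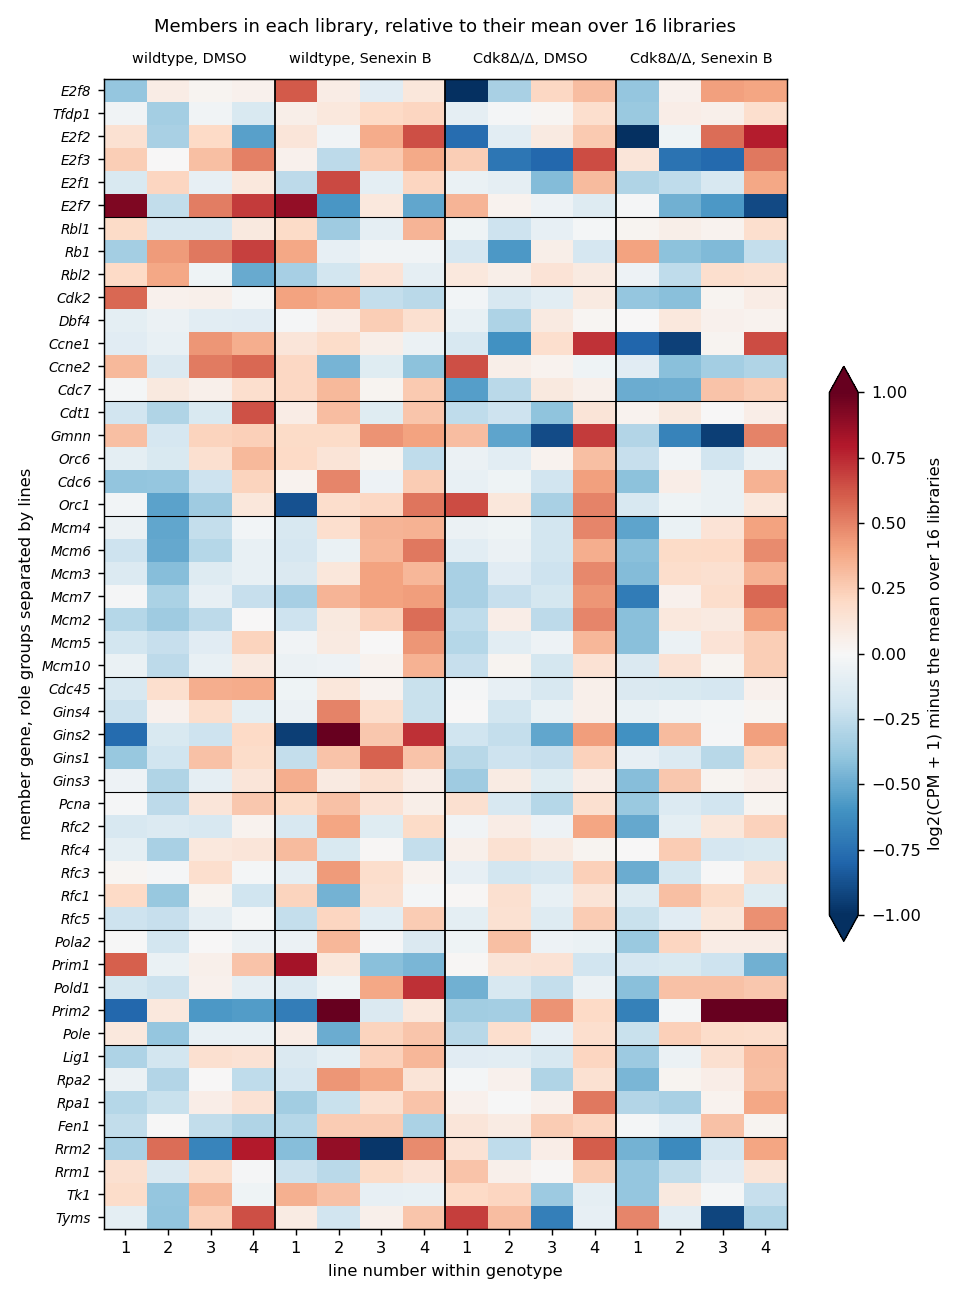
Each member (rows, in role groups) in each library (columns, 4 lines in each of 4 groups), as log2(CPM + 1) minus the gene's mean over 16 libraries, with the colour scale ending at -1 and 1. The line pattern of E2f3 and Rrm2 is similar in the DMSO and Senexin B columns of a genotype, and that of Gmnn in Cdk8Δ/Δ lines only. The 7 helicase rows largely share their colours.

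The wider pathway gave few passes. Of 54 other E2F and replication genes, such as further origin, polymerase and fork protection genes, none passed in any comparison with or without the block, and 5 had an unadjusted p under 0.05 over the 8 lines with the block, against 16.4% of all genes. Of the 11 tested genes that regulate RB in G1 (D cyclins, CDK4, CDK6 and their inhibitors), 1 passed the adjusted p over the 8 lines with the block and no fold limit. It was Ccnd1, which encodes cyclin D1, with 60.2, 16.5, 35.7 and 46.2 CPM in wildtype and 101, 23.0, 32.7 and 19.1 CPM in Cdk8Δ/Δ lines with DMSO. With Senexin B it was 50.6, 7.11, 20.6 and 44.8 CPM in wildtype and 59.7, 10.7, 24.0 and 12.6 CPM in Cdk8Δ/Δ lines, lower in 8 of 8 lines (log2 fold change -0.64, SE 0.13, adjusted p = 0.0229, edgeR with the replicate block). Without the block its adjusted p was above the limit. None of the 22 G2/M genes passed, with a median of 0.09 beside 0.07 for the 50 members in the same fit.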

How the data were processed

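Labels gave the genotype and treatment of the 16 libraries. The deposited values are raw counts per gene: the authors sequenced single-end reads of 50 bases, trimmed them with Trimmomatic, aligned them with STAR and counted them with featureCounts 1.5.1 on GENCODE M13 (GRCm38), without strand per the file headers. In 15 headers the annotation folder is called modified and in 1 it has another name, while the gene models listed are identical. Symbols were matched for 50376 of 50686 identifiers.

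Counts were normalised by TMM and filtered with filterByExpr, and groups were compared over all genes with the robust quasi-likelihood test of edgeR 4.0.16 (R 4.3.3) with Benjamini-Hochberg adjustment. The limits and the unpaired comparisons follow the study's methods, but the study's test was DESeq2, not edgeR. The counts of calls given here are therefore not those of the study. Each 2-group comparison used its 8 libraries. Senexin B over both genotypes (genotype as a covariate) and the interaction used all 16. Genotype and Senexin B comparisons share libraries and are not independent. DMSO and Senexin B libraries with the same number deviated together from their group means (r from 0.56 to 0.78 in the 4 wildtype pairs and from 0.77 to 0.87 in the 4 Cdk8Δ/Δ pairs), so the number was read as the line and the Senexin B fits were repeated with it as a block. Single values were compared by exact tests on log2(CPM + 1), for 14 members in all; the smallest p for 4 against 4 lines is 0.0286.

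Alternatives were RLE size factors, DESeq2 1.42.0, no filter, at least 10 counts in every library, all 16 libraries in one fit, no fold limit, the replicate block and leaving out each library. DESeq2 with the block or with no fold limit, and leaving out both libraries of a line under the block, were added after seeing the data. The calling was tested on simulated data. The members, their roles, the other gene lists and the markers were chosen with earlier results of these data known. Of the cell type markers checked, 1 is not reported here. Members with values in every library were those called, the 3 with the smallest unadjusted p in each of 5 comparisons (with the block for Senexin B), the 1 with the smallest p for the interaction, those whose genotypes did not overlap in both treatments, and E2f1 and Ccne1. The highest and lowest of each role per kilobase were also named. Other genes given with a value, such as Ccnd1, Prim1, E2f8, Mcm2 and Mcm10, were named after their values were seen. Figures were drawn with matplotlib 3.10.9.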

Additional observations from a re-analysis of the deposited data

Results flagged for a closer look

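In 16 of 200 groups of 4 libraries (50 members in 4 groups) 1 library lay far from the other 3, by Dixon's criterion at the 95% level. Chance alone gives about 1 in 20 groups, and genes of 1 library are not independent. These are values only, with no explanation tested.

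In Cdk8Δ/Δ line 4 with DMSO, 4 members were high: Mcm7 at 307 CPM (others 180 to 199.7), Gins1 at 33.1 CPM (others 22.98 to 24.1), Lig1 at 262 CPM (others 203 to 211) and Rpa1 at 193 CPM (others 133 to 138). The same line with Senexin B was high in E2f1, at 46.1 CPM (others 28.2 to 31.2), and in Cdc45, at 91.1 CPM (others 78.4 to 79.8). Cdk8Δ/Δ line 1 was low with Senexin B in the polymerase genes Pold1, at 124 CPM (others 199.9 to 204), and Pole, at 169 CPM (others 224 to 234). It was high with DMSO in Ccne2, at 68.7 CPM (others 42.5 to 45.6). Cdk8Δ/Δ line 2 with DMSO was high in Pola2, at 201 CPM (others 156 to 158).

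Wildtype line 1 stood apart with DMSO in E2f8, at 324 CPM (others 430 to 444), and in Cdk2, at 538 CPM (others 356 to 375). With Senexin B it was low in Mcm7, at 179 CPM (others 286 to 301), and high in Rb1, at 235 CPM (others 169 to 175). Wildtype line 4 with DMSO was high in Cdt1, at 211 CPM (others 110 to 122), and in Rfc2, at 196 CPM (others 171 to 174).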

How the results depend on the processing

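None of the members was called at both limits in any of the 6 comparisons, and this count stayed 0 under RLE size factors, DESeq2, no filter, a minimum of 10 counts, all 16 libraries in one fit, the replicate block and each left-out library. Without the fold limit, the replicate block passed 2 members over both genotypes, and DESeq2 with the block passed 4 there and 1 in Cdk8Δ/Δ lines. The block was used for the pairing of lines in the Senexin B comparisons. In the genotype comparisons the numbers do not pair the lines (correlations from -0.15 to 0.26 with DMSO and from -0.14 to 0.43 with Senexin B), and the block left the count of called members at 0. The members' median log2 fold change depended on single libraries. With 1 library left out, it changed sign for genotype in DMSO (from -0.07 to 0.07) and for Senexin B in Cdk8Δ/Δ lines (from -0.10 to 0.09). It kept its sign in the other 4 comparisons, but its size varied in each. The range was -0.20 to -0.04 for genotype with Senexin B and -0.27 to -0.08 for the interaction. For Senexin B it was 0.10 to 0.21 in wildtype lines and 0.04 to 0.12 over both genotypes.

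Of the single genes, those near 0 changed sign. With 1 library left out, E2f1 ranged from -0.22 to 0.039 for genotype in DMSO and from -0.036 to 0.14 for Senexin B over both genotypes, and Ccne1 from -0.35 to 0.11 for genotype in DMSO. With both libraries of wildtype line 2 left out under the block, E2f1 was -0.011 for Senexin B over both genotypes. The cause was not tested. With 4 lines a group, the intervals of 6 members for genotype in DMSO include a 2-fold difference, so these data do not bound their change within it.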
